A study of Homo sapiens with 6 samples.

Results

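The collagen genes of Hep3B cells were described across control libraries and libraries labelled PELP1-KD. A gene was taken as a collagen when its symbol was COL, a number, the letter A and a number, which gave 43 of the 23228 genes in the deposited tables. Hep3B is an established line of human hepatocellular carcinoma cells, grown here in RPMI medium. Control cells carried a non-targeting short hairpin RNA delivered by lentivirus (3 libraries). Cells labelled PELP1-KD carried a lentiviral short hairpin RNA against PELP1, a coregulator of nuclear receptors, and were kept as pooled clones after puromycin selection (3 libraries). The library titles name hairpin 1, whereas the protocol of the labels names a pair of PELP1 hairpins, so it is uncertain which of them the sequenced cells carried. No label says that the replicates were separate cultures, so every p-value here measures the spread between these libraries, which may be technical.

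Collagens are secreted proteins in which 3 alpha chains wind into a triple helix, either from 1 gene or from several. Fibrillar collagens build the cable-like fibrils of cartilage, tendon, skin and scar, and the FACIT class (fibril-associated collagens with interrupted triple helices) binds to the surface of those fibrils. Type IV collagens form the sheets of basement membranes, type VI forms beaded filaments, and the multiplexin COL18A1 carries endostatin and is made by hepatocytes. In fibrotic liver most fibrillar collagen is made by stellate cells and fibroblasts rather than by hepatocytes.

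Reads on genes per library ranged from 26758363 to 34456542. PELP1 RNA itself was measured at 4893, 4914 and 5101 reads after scaling to library size (normalized reads) in control, against 4421, 4825 and 4840.2 for the group labelled PELP1-KD. Its level in the latter group was 94.5% of control, a log2 fold change of -0.082 (SE 0.041) with an adjusted p of 0.101 in edgeR's quasi-likelihood test and of 0.0106 once the replicate number was added as a block. All libraries labelled PELP1-KD were below control, but the targeted RNA was near the control level. The second group is therefore called "labelled PELP1-KD" throughout. The paper reports lower PELP1 protein on Western blots of its PELP1-KD Hep3B cells, which RNA counts do not measure. Replicate 3 of both groups stood apart from replicates 1 and 2, and results that change without it are given with their values. All 9 hepatocyte markers, among them ALB and AFP, were abundant. Their summed levels per 1000000 reads on genes were 27490 to 28020 in control and 24410 to 25270 in the libraries labelled PELP1-KD. At an adjusted p below 0.05, 3 of them rose and 6 fell, against 26.8% and 26.7% of all tested genes (53.6% in all). Of 9 stellate cell or fibroblast markers, LUM (305 to 656 reads per library), PDGFRA (78 to 224), PDGFRB (27 to 163) and RGS5 (62 to 85) were detected, THY1 had no read, and DES, DCN, LRAT and ACTA2 had at most 10 reads in any library.

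A read was seen for 36 of the 43 collagen genes, and 24 of them had enough reads to be tested. Among these 24, 10 rose and 8 fell in the libraries labelled PELP1-KD, and 6 did not pass an adjusted p of 0.05. Thus 18 of 24 were called, and over all 14537 tested genes 26.8% rose and 26.7% fell by the same rule (53.6% in all). With at least a 2-fold change as well, 3 collagens (COL1A1, COL2A1 and COL12A1) rose and 5 (COL11A1, COL4A6, COL8A2, COL9A3 and COL19A1) fell, against 2.85% and 4.79% of all tested genes (7.65% in all). The groups did not overlap for the same number of genes, 10 above and 8 below control, against 29.5% and 29.3% of all tested genes (58.8% in all). The median log2 fold change of the tested collagens was -0.10, that of all tested genes was 0.0044, and the sign of the collagen median changed with the filter and with single libraries. COL8A2 and COL19A1 passed the filter on low counts through the control libraries, where they were high, so their calls came with that selection. Of the libraries labelled PELP1-KD, 1 reached the filter's minimum for COL8A2 and 0 did for COL19A1. Without this pair 6 collagens fell, 3 of them by at least 2-fold. COL24A1 reached the minimum in 2 control libraries and in all 3 labelled PELP1-KD.

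**Figure D1:**
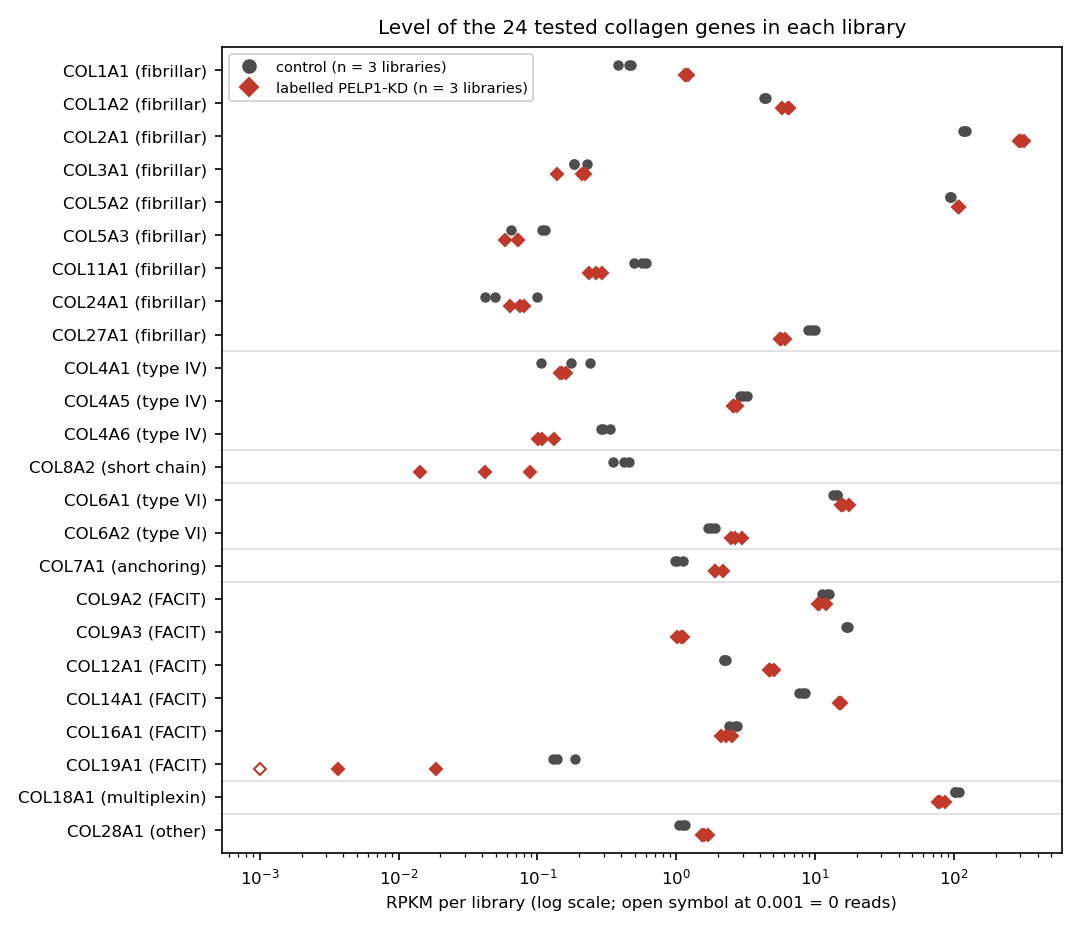
RPKM (log axis) of each tested collagen gene in each of the 6 libraries, grouped by class. RPKM is reads per kilobase of exon per 1000000 reads of the scaled library size. An open symbol stands for 0 reads. COL2A1, COL5A2 and COL18A1 lie far to the right of the others in both groups, and COL9A3, COL8A2 and COL19A1 show the widest gaps between groups. COL8A2 and COL19A1 passed the filter through the control libraries, where they were high.

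Per exon length, 3 genes made most of the collagen RNA. COL2A1 stood at 118 ± 2.96 RPKM in control (mean ± SD, n = 3 libraries), COL18A1 at 104 ± 3.49 and COL5A2 at 94.6 ± 0.911. COL9A3 followed at 16.9 ± 0.253, then COL6A1 at 14.0 ± 0.557, COL9A2 at 12.0 ± 0.672, COL27A1 at 9.46 ± 0.557 and COL14A1 at 8.07 ± 0.382. No neighbours in this order overlapped over the control libraries. In the libraries labelled PELP1-KD the order was COL2A1 at 306 ± 11.3 RPKM, COL5A2 at 108 ± 0.571 and COL18A1 at 80.9 ± 4.68. COL6A1 at 16.2 ± 1.09 and COL14A1 at 15.1 ± 0.345 came next, with ranges over libraries that overlapped, and COL9A3 had dropped to 1.08 ± 0.0556. COL2A1, COL5A2 and COL18A1 together held 79.8 to 80.2% of collagen RPKM in control and 86.9 to 87.2% in the other group.

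Collagen reads made up 0.221%, 0.222% and 0.227% of the reads on genes in the control libraries. The group labelled PELP1-KD had shares of 0.315%, 0.320% and 0.329%. The groups did not overlap, and the exact two-sided permutation p of 0.1 is the smallest that 3 against 3 libraries can give. Without COL2A1 the shares were 0.162 to 0.165% in control and 0.163 to 0.168% in the other group, which overlapped. COL2A1 alone supplied 26.5 to 27.02% of collagen reads in control and 48.3 to 49.0% in the libraries labelled PELP1-KD. By class, the fibrillar share of collagen RPKM was 57.6% ± 0.22 in control and 75.3% ± 0.34 in the other group (SD, n = 3). The multiplexin share was 26.2% ± 0.43 in control and 14.2% ± 0.37 in the other group. The FACIT share was 10.6% ± 0.26 in control and 6.04% ± 0.20 in the other group. These are shares of a sum, so a class can lose share while its own RNA does not change. The summed RPKM itself was 41.5 to 42.6 in control and 33.7 to 34.7 in the other group for the FACIT class. For the multiplexins it was 101 to 108 and 77.1 to 86.1, and for the fibrillar class 226 to 231 and 416 to 440. The FACIT sum hides opposite changes. Its called members COL9A3 and COL19A1 fell, from 16.9 to 1.08 and from 0.152 to 0.00744 RPKM. COL12A1 and COL14A1 rose, from 2.24 to 4.83 and from 8.07 to 15.1 RPKM.

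**Figure D2:**
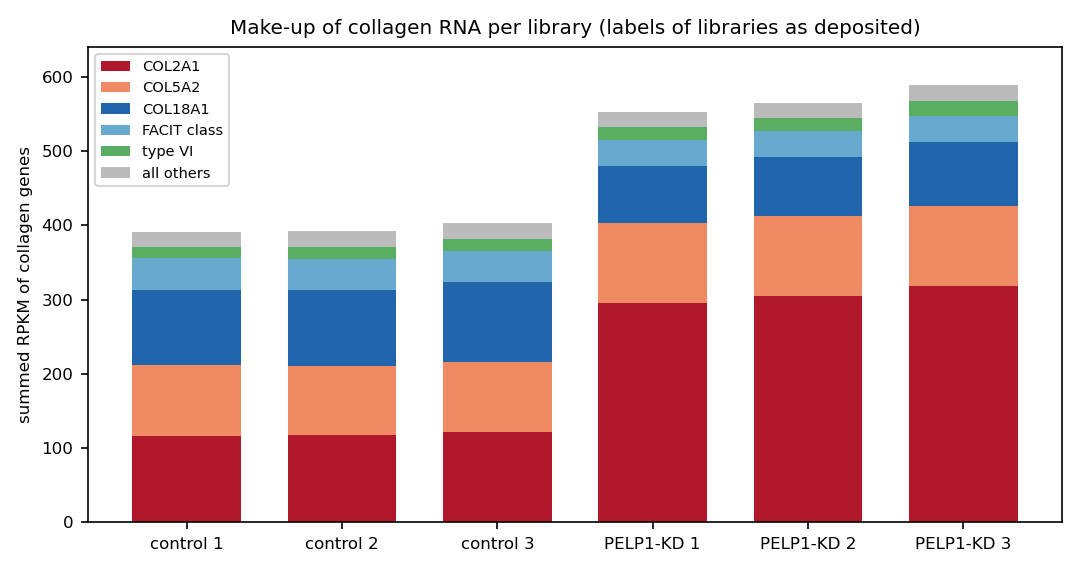
Summed RPKM of the collagen genes in each library (y axis), divided into COL2A1, COL5A2, COL18A1, the FACIT class, type VI and all others; COL11A2, annotated on several sequences, is left out. The COL2A1 segment grows from about 118 RPKM in control to about 306 in the libraries labelled PELP1-KD, while the other segments change less.

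Among the 11 fibrillar genes, 9 were tested, of which 4 rose, 2 fell and 3 did not pass (66.7% called, against 53.6% of all tested genes). COL2A1 (chr12:48366748-48398285 in hg19), which encodes the chain of cartilage type II fibrils, had 18501, 18729 and 19412 normalized reads in control. It had 47234, 48790.2 and 50823 in the libraries labelled PELP1-KD. All 3 of these were above every control library, and the mean was 259% of control, a log2 fold change of 1.37 (SE 0.033, 95% interval 1.31 to 1.44, adjusted p = 1.59e-17). No other collagen moved by as many reads. COL1A1 (chr17:48261457-48279000), the major chain of type I fibrils in scar and bone, had 93, 74 and 92 reads in control and 222, 185 and 220 in the other group. Its groups did not overlap, with a log2 fold change of 1.44 (SE 0.12, adjusted p = 3.38e-09), at a level of only 0.436 RPKM in control and 1.19 in the libraries labelled PELP1-KD. Its partner COL1A2, the other type I chain, was more abundant at 4.35 and 6.21 RPKM. It had 735, 732 and 752 normalized reads in control and 987, 1096 and 1084 in the other group. Those values did not overlap, and COL1A2 rose by 0.51 on the log2 scale (SE 0.057, adjusted p = 2.84e-07).

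COL5A2, a chain of the type V collagen that starts fibril assembly, had 20834, 20469 and 20517 normalized reads in control and 23387, 23535 and 23635 in the other group. Every library labelled PELP1-KD was above control, but the rise was small, with a log2 fold change of 0.19 (SE 0.029, adjusted p = 1.23e-05). COL5A1, the chain that COL5A2 pairs with in type V collagen, had 0 reads in every library, which allows up to 3 reads per library and covers counting error only. COL5A3, the third type V gene, had 11 to 23 reads per library and did not pass (log2 fold change -0.50, SE 0.34, adjusted p = 0.221). COL11A1 (chr1:103342023-103574052), a minor chain of cartilage fibrils, had 145, 148 and 122 reads in control and 54, 53 and 68 in the other group. Its groups were separate and it fell by 1.08 on the log2 scale (SE 0.15, adjusted p = 4.05e-06). COL27A1, a fibrillar collagen of growth-plate cartilage, had 1558, 1669 and 1753 normalized reads in control and 992, 977 and 1064 in the other group. It too was lower in all 3 libraries labelled PELP1-KD, at 60.9% of control (log2 -0.71, SE 0.055, adjusted p = 1.34e-09). The cartilage collagens therefore did not move in one direction, since COL2A1 rose while COL11A1, COL27A1 and, as given below, COL9A3 fell. COL3A1, the type III chain of reticular fibres, and COL24A1 had 24 to 43 and 9 to 21 reads per library, and neither passed (adjusted p = 0.816 and 0.674). COL11A2 had at most 11 reads in a library and was not tested.

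**Figure D3:**
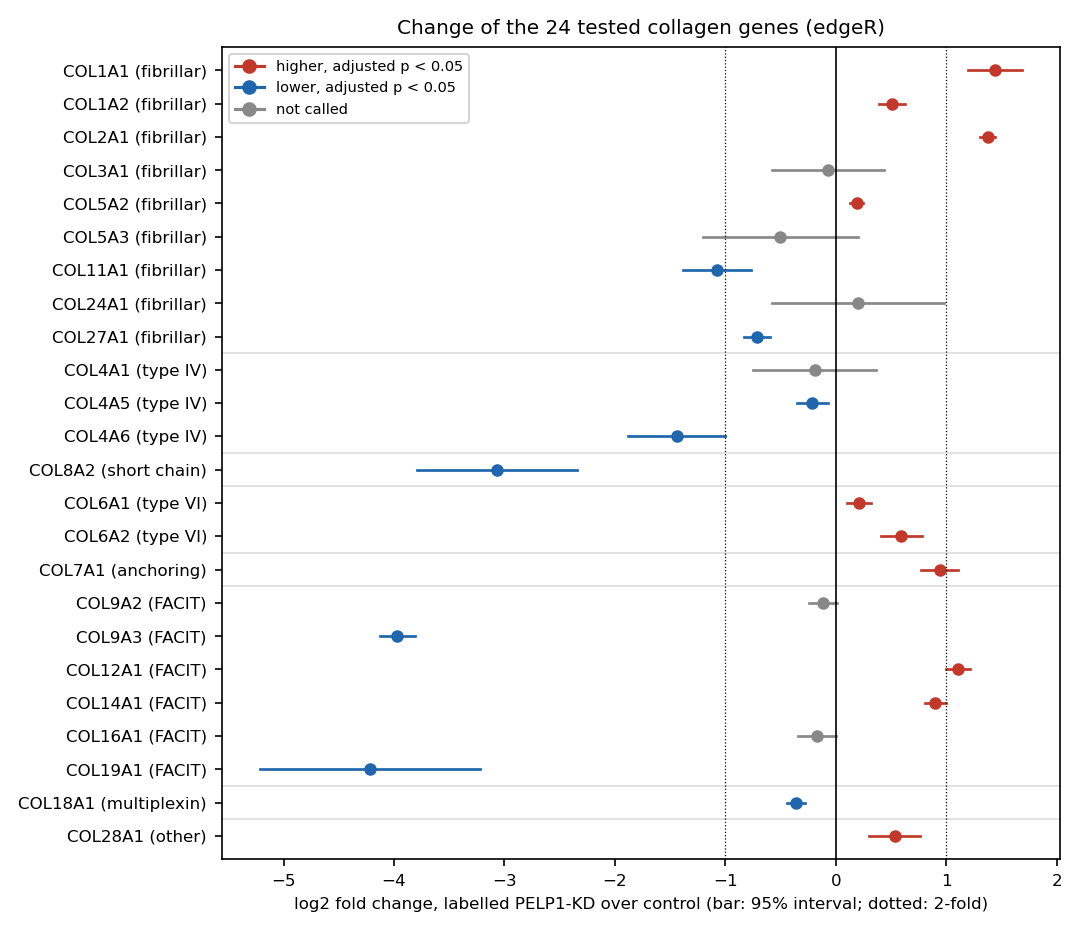
Log2 fold change of each tested collagen gene, labelled PELP1-KD over control, with a 95% interval derived from edgeR's F statistic. Colours mark genes called higher, called lower and not called, and dotted lines mark a 2-fold change. Rises reach 1.44 (COL1A1), whereas the falls of COL8A2, COL9A3 and COL19A1 exceed 3 on the log2 scale. COL8A2 and COL19A1 passed the filter through the control libraries, where they were high, a selection that favours large falls.

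The FACIT class held the widest range of changes, with 6 of 10 genes tested, 2 higher, 2 lower and 2 not passing. Thus 66.7% of its tested genes were called, against 53.6% of all tested genes. COL9A3 (chr20:61448414-61472511) encodes a chain of type IX collagen, which coats type II fibrils in cartilage. It had 1332, 1338 and 1301 normalized reads in control. It had 85.0, 79.3 and 87.9 in the libraries labelled PELP1-KD. The highest of the latter was far below the lowest control, at 6.35% of the control mean, a log2 fold change of -3.97 (SE 0.077, 95% interval -4.13 to -3.81, adjusted p = 5.38e-19). COL9A2, a second chain of the same trimer, had 1088, 999 and 1112 normalized reads in control and 933, 946 and 1065 in the other group. Those ranges overlapped and COL9A2 did not pass (log2 -0.12, 95% interval -0.25 to 0.0084, adjusted p = 0.108), although its decrease passed with the replicate block (adjusted p = 0.0241) and without replicate 3 (adjusted p = 0.0219). COL9A1, the third type IX gene, had at most 1 read in a library. At its 3' end COL9A3 shares 45 exon bases with TCFL5 on the opposite strand, and TCFL5 fell by 0.45 on the log2 scale (adjusted p = 0.000101). The deposited counts were made by strand.

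COL12A1 and COL14A1 bind to type I fibrils. COL12A1 (chr6:75794042-75915623) had 834, 805 and 807 normalized reads in control and 1852, 1729 and 1692 in the other group, with no overlap. The log2 fold change was 1.11 (SE 0.052, adjusted p = 5.79e-13), so the mean was 216% of control. COL14A1 had 1657, 1703 and 1552 normalized reads in control and 3134, 3038 and 2997 in the other group, again with no overlap. Its log2 fold change of 0.90 (SE 0.045, adjusted p = 1.68e-12) was short of 2-fold. COL19A1 (chr6:70576448-70922157), a FACIT found at basement membrane zones, had 39, 53 and 40 reads in control and 5, 0 and 1 in the other group. Scaled to library size, the summed reads of control were 19.6 times those of the other group (95% exact binomial interval 8.77 to 54.4, counting error only), and the fitted log2 fold change was -4.22 (SE 0.48). COL16A1, a FACIT of many tissues, did not pass (log2 -0.17, 95% interval -0.34 to 0.00088, adjusted p = 0.0871) but passed as lower under the replicate block (adjusted p = 0.0389). COL20A1, COL21A1 and COL22A1 had at most 4 reads in any library.

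Type IV genes lie in head-to-head pairs that share a promoter region, with 450 bases between the hg19 starts of COL4A6 and COL4A5, 135 between COL4A1 and COL4A2, and 6 between COL4A4 and COL4A3. Of the 6 genes, 3 were tested and 2 fell (66.7% called, against 53.6% of all tested genes). COL4A6 (chrX:107398837-107682704) had 67, 66 and 75 reads in control and 21, 24 and 23 in the other group, and fell by 1.44 on the log2 scale (SE 0.21, adjusted p = 8.96e-06). COL4A5, which pairs with COL4A6 in one basement membrane trimer, was the more abundant per length in control (3.05 against 0.305 RPKM). It had 580.3, 656 and 615 normalized reads in control and 555, 529.7 and 513 in the other group, and fell by 0.21 on the log2 scale (SE 0.068, adjusted p = 0.0137), a call lost without control replicate 2 (adjusted p = 0.0879). COL4A1, the most widely expressed type IV gene, had 23 to 51 reads per library and did not pass (adjusted p = 0.567). COL4A2 had 6 to 11 reads per library, and COL4A3 and COL4A4 had at most 3.

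The promoter windows of COL4A5 and COL4A6 are shown because the starts lie close together while the RNA ratio of the genes did not overlap between the groups, as the pair ratios given further on show. Each window is the 250 bases before a RefSeq start (GRCh38.p14), 5′ to 3′ on the gene's strand. Capitals mark the 121 bases that the COL4A5 window and the upstream COL4A6 window share, which read as reverse complements of each other. The starts of that pair lie 379 bases apart. The second COL4A6 start lies 1036 bases further inside the gene, and its window shares no base with that of COL4A5.
COL4A5, chrX:108439588-108439837, plus strand: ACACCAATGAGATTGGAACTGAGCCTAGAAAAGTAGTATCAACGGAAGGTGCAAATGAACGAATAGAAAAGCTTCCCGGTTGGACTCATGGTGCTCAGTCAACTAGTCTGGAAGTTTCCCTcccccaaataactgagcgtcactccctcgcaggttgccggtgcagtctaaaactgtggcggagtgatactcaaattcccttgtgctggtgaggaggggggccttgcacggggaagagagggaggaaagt
COL4A6 upstream start, chrX:108439459-108439708, minus strand: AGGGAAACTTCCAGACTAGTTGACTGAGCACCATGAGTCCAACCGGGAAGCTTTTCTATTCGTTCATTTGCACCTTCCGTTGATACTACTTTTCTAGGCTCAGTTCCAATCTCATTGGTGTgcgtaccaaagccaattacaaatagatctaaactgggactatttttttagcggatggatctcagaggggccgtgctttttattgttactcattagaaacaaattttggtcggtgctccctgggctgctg
COL4A6 downstream start, chrX:108438423-108438672, minus strand: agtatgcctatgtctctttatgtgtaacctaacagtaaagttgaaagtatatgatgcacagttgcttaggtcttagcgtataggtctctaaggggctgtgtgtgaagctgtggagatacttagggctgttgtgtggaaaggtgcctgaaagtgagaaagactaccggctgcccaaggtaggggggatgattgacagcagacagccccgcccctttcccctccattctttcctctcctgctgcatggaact
The counts are summed over all exons of a gene, so they do not say which COL4A6 start was used.

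COL8A2 (chr1:36560844-36565850), a short chain collagen of the corneal and vascular matrix, had 64, 51 and 67 reads in control. It had 12, 5 and 2 in the libraries labelled PELP1-KD, which were all below control. Scaled to library size, control held 8.53 times the reads of the other group (95% exact binomial interval 5.31 to 14.5, counting error only), and the fitted log2 fold change was -3.07 (SE 0.35). COL8A1 had no read and COL10A1, the type X gene of hypertrophic cartilage, had at most 1 read in a library. COL6A1 and COL6A2, chains of the type VI trimer, both rose, by 0.21 (SE 0.051, adjusted p = 0.00173) and 0.59 (SE 0.088, adjusted p = 1.19e-05) on the log2 scale. COL6A1 had 1777, 1906 and 1903 normalized reads in control and 2028, 2117 and 2311 in the other group. COL6A2 had 229, 244 and 258 in control and 337, 362 and 404 in the other group, so neither gene overlapped between groups. COL6A3, the third chain of that trimer, had at most 2 reads in a library, COL6A6 at most 1 and COL6A5 none.

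COL18A1 (chr21:46825097-46933634), the basement membrane collagen of hepatocytes, had 19288, 19375 and 20478 normalized reads in control and 14667, 15105 and 16378 in the other group. All libraries labelled PELP1-KD were below control, at 78.0% of its mean, and it fell by 0.36 on the log2 scale (SE 0.038, adjusted p = 1.73e-07). COL7A1, which builds the anchoring fibrils of epithelia, had 292, 283 and 324 normalized reads in control and 549, 547 and 626 in the other group. It rose by 0.94 on the log2 scale (SE 0.080, adjusted p = 6.7e-09), with no overlap. It shares 36 exon bases with the microRNA gene MIR711 on the same strand. COL28A1, a collagen with von Willebrand factor A domains, rose by 0.53 (SE 0.11, adjusted p = 0.000424) from 123, 128 and 115 to 187, 174 and 169.8 normalized reads. COL15A1, the other multiplexin, and the transmembrane collagens COL13A1, COL23A1 and COL25A1 had no read in any library, and COL17A1 had 1 to 10 reads.

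The genes for chains of one trimer were compared in the 4 pairs of which both members were tested. The measure was the log2 ratio of reads of a pair within a library, which does not depend on library size. COL9A2 over COL9A3 was -0.29, -0.42 and -0.23 in control and 3.45, 3.57 and 3.59 in the other group, a difference of 3.85. COL4A5 over COL4A6 was 3.23, 3.36 and 3.10 in control and 4.66, 4.21 and 4.45 in the other group, a difference of 1.21. COL1A1 over COL1A2 was -3.10, -3.36 and -3.09 in control and -2.12, -2.34 and -2.30 in the other group, a difference of 0.93. COL6A1 over COL6A2 was 2.95, 2.96 and 2.88 in control and 2.59, 2.55 and 2.52 in the other group, a difference of -0.38. No pair overlapped between groups, and each had an exact two-sided permutation p of 0.1 (0.1 after adjustment over the 4 pairs), the smallest that 3 against 3 libraries can give. Of all tested genes taken singly 58.8% did not overlap, and the share for other pairs of genes was not measured. Per length, COL9A2 and COL9A3 stood at 12.0 and 16.9 RPKM in control and at 11.0 and 1.08 in the other group.

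**Figure D4:**
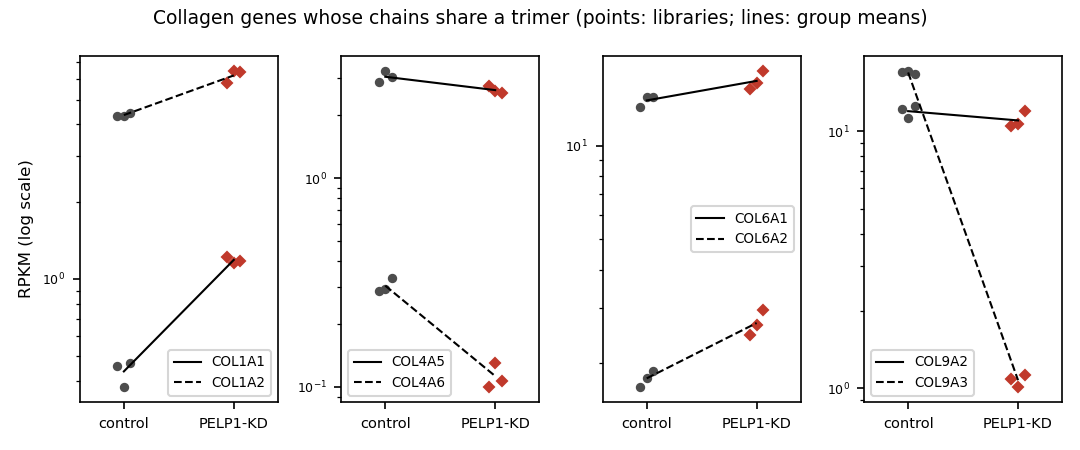
RPKM (log axis) of 4 pairs of collagen genes whose chains share a trimer, in the 3 control and the 3 libraries labelled PELP1-KD; points are libraries and lines join group means. The lines of COL9A2 and COL9A3 cross, because COL9A3 drops from 16.9 to 1.08 RPKM while COL9A2 goes from 12.0 to 11.0.

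Promoter windows were also printed for COL8A2, COL12A1 and COL19A1, because they are among the 2-fold changed genes with a RefSeq window and differ in their number of GC boxes. In these windows capitals mark the GC box, GGGCGG or its reverse complement CCGCCC, to which Sp1-type factors can bind.
COL8A2, chr1:36125223-36125472, minus strand: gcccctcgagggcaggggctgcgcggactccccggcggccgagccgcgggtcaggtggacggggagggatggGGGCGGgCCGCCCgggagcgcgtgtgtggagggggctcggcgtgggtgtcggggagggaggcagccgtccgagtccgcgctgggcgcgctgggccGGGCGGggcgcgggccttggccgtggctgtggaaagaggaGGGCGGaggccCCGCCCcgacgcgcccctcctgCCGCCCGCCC
COL12A1, chr6:75206054-75206303, minus strand: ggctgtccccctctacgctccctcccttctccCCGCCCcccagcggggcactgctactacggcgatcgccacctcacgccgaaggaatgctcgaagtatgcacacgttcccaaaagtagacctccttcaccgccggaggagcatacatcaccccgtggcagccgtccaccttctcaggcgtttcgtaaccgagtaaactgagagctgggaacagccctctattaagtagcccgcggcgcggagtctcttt
COL19A1, chr6:69866306-69866555, plus strand: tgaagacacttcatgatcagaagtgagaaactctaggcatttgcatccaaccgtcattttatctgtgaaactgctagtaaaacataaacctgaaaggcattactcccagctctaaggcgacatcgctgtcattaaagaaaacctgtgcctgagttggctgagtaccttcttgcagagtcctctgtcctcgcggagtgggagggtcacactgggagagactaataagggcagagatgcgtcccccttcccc
The COL8A2 window held 7 matches, overlapping ones included, that of COL12A1 held 1 and that of COL19A1 held 0. The RefSeq start of COL8A2 lies upstream of the hg19 gene model whose reads were counted. Its window therefore does not adjoin that model. Of the 24 tested collagens, 16 had a window (19 windows in all) and COL14A1, COL1A1, COL1A2, COL2A1, COL3A1, COL5A2, COL6A1 and COL9A3 had none. The GC box was in 14 of the 19 windows and in 42.6% of all 35116 windows of the table. A TATA box, TATAAA on either strand, was in 3 of the 19 and in 10.7% of all. The median count of CpG in the 19 windows was 13, against 11 over all windows. These matches are a description of the sequence and were not set against the direction of change.

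The genes that modify, export, crosslink, bind and break down collagen were compared as a list of 53, of which 41 were tested. Of these, 8 rose, 19 fell and 14 did not pass (DESeq2 gave 16 lower), so 65.9% were called. Over all tested genes 26.8% rose, 26.7% fell and 53.6% were called. The median change of the list was -0.11 on the log2 scale, and that of all tested genes was 0.0044. In proline and lysine hydroxylation, 3 of 11 tested genes rose and 6 fell. P4HB, the most abundant, a subunit of the prolyl 4-hydroxylase that stabilises the triple helix, fell by 0.28 on the log2 scale (adjusted p = 3.68e-07), whereas the catalytic subunit gene P4HA2 rose by 0.68 (adjusted p = 3.85e-10). In glycosylation, folding and export, 1 of 8 rose and 3 fell. PPIB, a prolyl isomerase that speeds folding of the helix, had 11942, 11688 and 12089.8 normalized reads in control and 8128, 8366 and 8558 in the other group. It fell by 0.51 on the log2 scale (SE 0.033, adjusted p = 1.08e-10), while the collagen chaperone SERPINH1 did not pass (log2 -0.032, 95% interval -0.12 to 0.054).

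Among 6 tested genes of propeptide removal, 1 rose and 2 fell (50% called, against 53.6% of all tested genes). TLL1, a protease that trims the carboxyl propeptide of fibrillar collagens, had 112, 96 and 100 reads in control and 336, 271 and 328 in the other group. Its log2 fold change was 1.77 (SE 0.10, adjusted p = 1.28e-11). PCOLCE2, an enhancer of that protease step and the most abundant of the group in control per length, had 1009, 934 and 866 reads in control and 357, 347 and 356 in the other group, and fell by 1.24 (SE 0.071, adjusted p = 1.43e-11). BMP1, the main protease of this kind, did not pass (log2 0.053, 95% interval -0.052 to 0.16). Of the 5 lysyl oxidases, which crosslink collagen, 3 fell and none rose (60% called, against 53.6% of all tested genes). LOXL4, the most abundant, fell by 0.18 on the log2 scale (adjusted p = 0.0123), a call lost without control replicate 3 (adjusted p = 0.0931) or without PELP1-KD replicate 2 (0.0666).

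Of 6 tested collagen receptors, 1 rose and 3 fell (66.7% called, against 53.6% of all tested genes). ITGA1, the alpha chain of a collagen-binding integrin of stellate cells and other cells, had 2444, 2321 and 2207 reads in control and 1078, 924 and 1038 in the other group, and fell by 1.03 (SE 0.048, adjusted p = 5.79e-13). ITGB1, its beta chain, was the most abundant receptor at 148 RPKM in control, and its groups overlapped. It fell by 0.094 (adjusted p = 0.0335), a call lost with total reads as the scale (0.0827) and without any of 4 single libraries, with adjusted p up to 0.186. MRC2, an endocytic collagen receptor, had 17, 22 and 22 reads in control and 7, 5 and 1 in the other group (log2 -2.03, SE 0.46). Of 5 tested genes of breakdown and its inhibitors, 2 rose and 2 fell (80% called, against 53.6% of all tested genes). MMP14, a membrane collagenase, rose by 0.49 (SE 0.045, adjusted p = 1.92e-08) and MMP1, MMP2, MMP8, MMP9 and MMP13 had at most 4 reads in a library. The inhibitors of such proteases did not move in one direction. TIMP3, the most abundant of them per length in the libraries labelled PELP1-KD, had 3425, 3426 and 3168 normalized reads in control and 5830.4, 5619.5 and 5600.3 in the other group, and rose by 0.77 (SE 0.041, adjusted p = 4.39e-12). TIMP2 fell by 0.14 (SE 0.045, adjusted p = 0.0116). TIMP1 was sparse, with 72, 44 and 42 reads in control and 9, 8 and 9 in the other group (log2 -2.42, SE 0.31). MRC2 and TIMP1 passed the filter through the control libraries alone, where they were high.

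**Figure D5:**
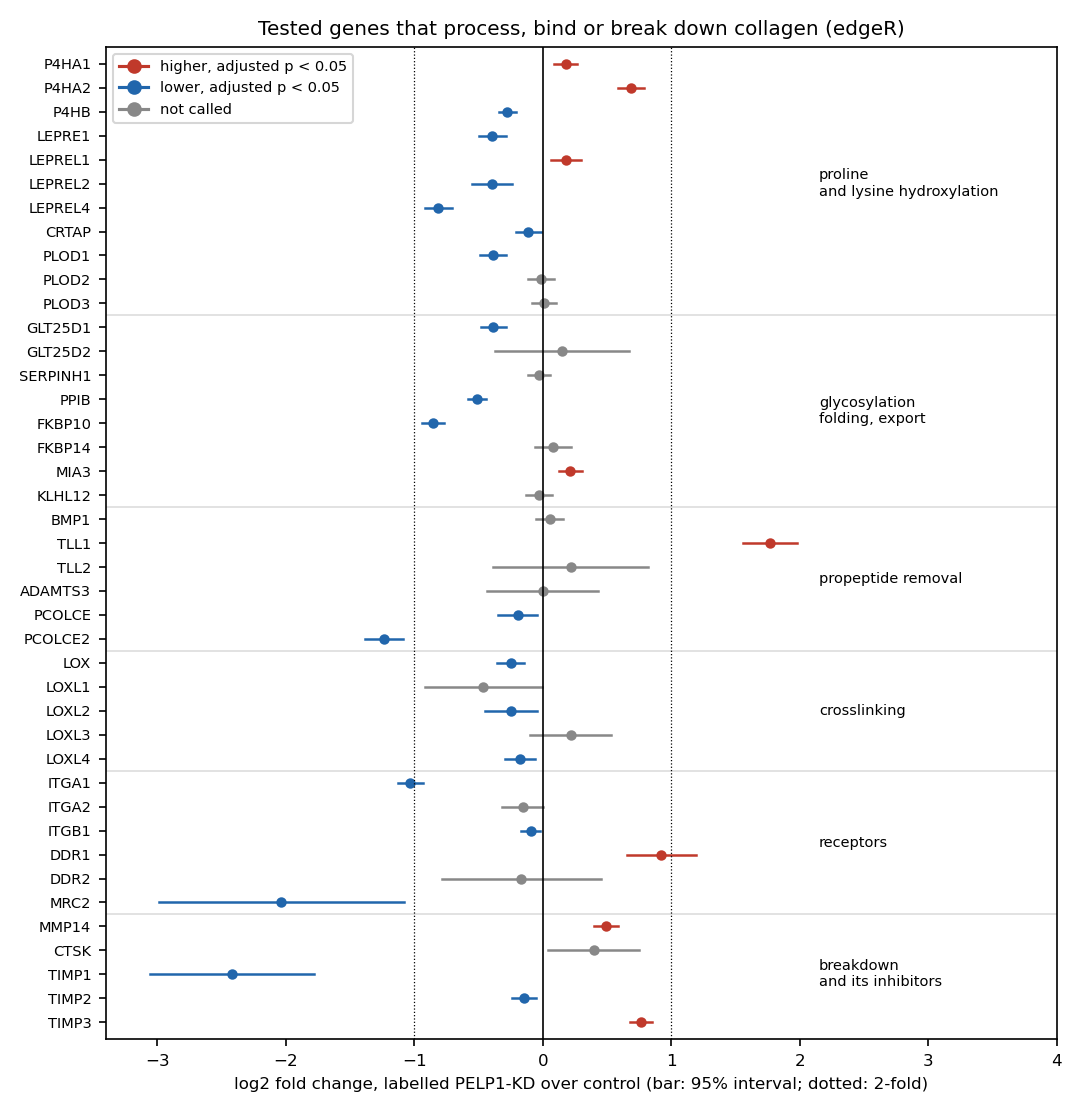
Log2 fold change with 95% interval, labelled PELP1-KD over control, of the 41 tested genes that modify, export, trim, crosslink, bind or break down collagen, ordered by role. Of the called genes 19 lie below 0 and 8 above (26.7% and 26.8% of all tested genes), from TIMP1 at -2.42, which passed the filter through control alone, to TLL1 at 1.77.

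The cartilage genes other than collagens had few reads or none in most cases. Of 11 such genes 4 were tested. SOX9, the transcription factor that activates COL2A1 in cartilage, was expressed at 37.8 RPKM in control and 36.9 in the other group, and did not pass (log2 -0.038, 95% interval -0.12 to 0.040, adjusted p = 0.414). SOX6 and MATN3 fell (log2 -0.26 and -0.31, adjusted p = 0.000263 and 1.67e-05), and SOX5 did not pass (log2 0.075). ACAN, HAPLN1 and LECT1 had no read, and MATN1, COMP, CHAD and EPYC had at most 9 reads in a library.

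The markers of other cell types were measured beside these results. The summed level of the 9 stellate cell or fibroblast markers was 21.3 to 24.9 reads per 1000000 in control and 26.2 to 29.6 in the other group. Of its 4 tested genes, LUM rose by 0.92 on the log2 scale (adjusted p = 1.39e-08), PDGFRA and PDGFRB fell (log2 -0.96 and -2.13, adjusted p = 8.27e-06 and 9.85e-10), and RGS5 did not pass. The endothelial list summed to 1.99 to 2.31 reads per 1000000 in control and 1.94 to 2.18 in the other group, with 3 of its 5 genes at 0 reads. The immune list, nearly all of it LYZ and CD68, summed to 171.9 to 184.6 and 108.1 to 108.9 reads per 1000000. Its tested members went opposite ways, since LYZ fell by 1.55 on the log2 scale (adjusted p = 2.97e-16) and CD68 rose by 0.48 (adjusted p = 1.24e-07), while PTPRC, the pan-leukocyte gene, had at most 5 reads in a library. The part of any such cells in the collagen results was not tested. In a bulk library, fewer cells of a type and less RNA per cell cannot be told apart.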

How the data were processed

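Hep3B libraries were grouped by their labels (3 control, 3 PELP1-KD). The authors deposited estimated counts per gene, 1 table per library, without normalization. The paper's methods name TopHat2 and HTSeq, whereas the submitters' processing notes name HISAT2 and featureCounts. The file headers give featureCounts 1.5.0-p1, run by strand on hg19 genes with a minimum mapping quality of 2, in which reads matching several places or genes were shared out as fractions. The labels also disagree on RNA extraction, on removal of ribosomal RNA against selection of mRNA, and on single against paired reads.

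Estimated counts were rounded. Genes were tested with edgeR 4.0.16 in R 4.3.3 (filterByExpr, TMM, glmQLFit with robust estimation, glmQLFTest, Benjamini-Hochberg over 14537 genes, thresholds 0.05 and 2-fold). The median standard error was 0.063. Normalized reads are reads scaled to the TMM library size. RPKM uses exon bases of the deposited annotation and the same TMM library size. Log2 ratios of pairs used 0.5 added reads. Promoter windows are RefSeq's. Methods were tested on simulated data with independent libraries, in which only genes with ample reads were changed. That simulation does not cover sparse genes or the shift of replicate 3.

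Every collagen was accounted for. Full values were given for members past both thresholds, the most abundant of each class and tested pairs, and for list genes past both thresholds or most abundant in their role. P4HA2, SERPINH1, BMP1, TIMP2, TIMP3 and further list genes were named after their values were seen. The members and lists were chosen with earlier results of these data known. Same-numbered libraries of the groups deviated together (correlations 0.336, 0.247 and 0.665 over 6369 genes), but so did control 2 with PELP1-KD 1 (0.417) and control 1 with PELP1-KD 2 (0.244). These values set replicate 3 apart but leave replicates 1 and 2 exchangeable, and the pairing rests on the label numbers. The block is given where it changes a call. Replicates of a group differed beyond sampling noise (chi-square per degree of freedom 1.94 to 7.02). Alternatives were DESeq2 1.42.0, its size factors, total reads, other filters, the block, and each library left out. The fit without replicate 3 was added after the data were seen.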

Additional observations from a re-analysis of the deposited data

How the results depend on the processing

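The 10 collagens called higher and the 8 called lower were the same 18 genes with DESeq2, with its size factors, with total reads and without a filter. With at least 10 reads in every library COL8A2 and COL19A1 were not tested, and the count of genes lower by 2-fold was 3 rather than 5. The median log2 fold change of the tested collagens was 0.13 without a filter, -0.017 without replicate 3 of both groups (chosen after seeing the data), and -0.12 to 0.10 with each library left out, so it has no stable sign. With the replicate number as a block, 20 collagens were called, 18 of them shared, with COL9A2 (log2 -0.12) and COL16A1 (-0.17) added as lower. Of the 35 collagen and list genes refitted under the block, the call changed for these 2 and stayed for 33, and the count of collagen handling genes called lower went from 19 to 20. For the pair ratios the block cannot change the mean difference, because each replicate number holds a library from each group. The differences stayed 0.93 for COL1A1 over COL1A2, 1.21 for COL4A5 over COL4A6, -0.38 for COL6A1 over COL6A2 and 3.85 for COL9A2 over COL9A3. Under the block the exact sign-flip permutation p was 0.25 for each, the smallest that 3 pairs can give. PELP1 had a log2 fold change of -0.083 with the block (adjusted p = 0.0106), -0.087 without replicate 3 (0.0244) and -0.105 to -0.040 with each library left out, and was called lower with the block, without replicate 3 and without PELP1-KD replicate 3 (0.018). Among genes that were not called, the sign turned for COL3A1 (0.045 without control replicate 1, 0.058 without replicate 3, and -0.20 to 0.12 with each library left out), COL24A1 (-0.014 to 0.66) and COL4A1 (0.10 without control replicate 2, -0.44 without replicate 3). COL4A5 (-0.17 without control replicate 2, adjusted p = 0.0879), COL9A2 and COL16A1 changed call in at least 1 fit, and the cause was not tested. COL7A1 passed 2-fold without control replicate 3, which made 4 genes. Genes with under 50 reads per library, such as COL3A1, COL5A3 and COL24A1, have standard errors of 0.24 to 0.37, so a moderate change of these was not detectable at this depth.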

Other observations

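EMID2, the older symbol of COL26A1, a secreted protein with collagen repeats, was not matched by the symbol rule. It had 3063, 2935 and 3133 reads in control and 3462, 3274 and 3968 in the other group. At 30.4 and 40.0 RPKM it would stand below COL2A1, COL5A2 and COL18A1 and above the other collagen genes in both groups, and it was higher in all 3 libraries labelled PELP1-KD (log2 0.40, SE 0.045, adjusted p = 4.31e-07). Of the pseudogenes of a type VI gene, COL6A4P1 had 43, 34 and 31 reads in control and 24, 20 and 26 in the other group and did not pass (adjusted p = 0.12), and COL6A4P2 had at most 2 reads in a library.

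The tested neighbours of the 2-fold changed collagens were looked up on hg19. Beside COL2A1, neither TMEM106C (log2 -0.015) nor SENP1 (-0.044) passed. Beside COL9A3, OGFR rose by 0.29 and TCFL5 fell by 0.45. Beside COL8A2, ADPRHL2 and TRAPPC3 rose by 0.21 and 0.17 while COL8A2 fell. Beside COL1A1, TMEM92, at a distance of 69.8 kb, rose by 0.96 (adjusted p = 8.23e-07), and PPP1R9B did not pass. Beside COL12A1, CD109, at a distance of 1260 kb, fell by 0.53 and COX7A2 rose by 0.16. Beside COL4A6, ATG4A did not pass, and COL4A5, at a distance of 0.45 kb, fell by 0.21. Beside COL19A1, LMBRD1, at a distance of 69.4 kb, fell by 0.35, and FAM135A, at 201 kb, did not pass. The nearest tested genes to COL11A1 were far off, OLFM3 at 879 kb and RNPC3 at 495 kb, and neither passed.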
